A study of Homo sapiens with 5 samples.

Results

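Genes of cholesterol synthesis and sterol transport were examined in LNCaP cells, an androgen-sensitive human prostate cancer line, after depletion of the retinoblastoma protein RB and irradiation. The 8 genes listed were STARD4, IDI1, HMGCS1, SQLE, INSIG1, FDFT1, DHCR7 and SC5D, chosen by symbol. Of these, 6 had a probe set with 1 gene name, out of 14812 genes measured in this way, and each of the 6 had a single such probe set. FDFT1, the squalene synthase, and SC5D, a desaturase late in the pathway, had none, so their expression is not analysed here. The shRB group held 3 arrays of cells given a retrovirus with an RB shRNA, and the shControl group 2 arrays of cells given a scrambled shRNA. Both populations were selected with puromycin, exposed to 10 Gy and harvested 24 h later, so irradiation was shared by all 5 arrays. The labels name neither the hairpin sequences nor separate cultures or clones, so the p-values reflect how far these arrays scatter, part or all of which may be technical.

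Cells make cholesterol from acetyl-CoA through mevalonate, isoprenoid units and squalene. When sterols in the endoplasmic reticulum are low, the protein SCAP escorts the SREBP transcription factors to the Golgi, where they are cleaved and released to switch on most genes of the pathway. When sterols are plentiful, INSIG proteins hold SCAP back. Finished cholesterol is moved between membranes by carriers such as STARD4, and in prostate cells it is also the precursor of steroid hormones.

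The sequences before the annotated starts are shown for the members whose transcripts passed the test, STARD4 and IDI1, beside a pair of well-known SREBP targets that did not, HMGCS1 and INSIG1. They are RefSeq sequences of build GRCh38.p14, 250 bases ending just before the start, read 5′ to 3′ on the strand of the gene. Capitals mark the CCAAT box, bound by NF-Y, as CCAAT or as ATTGG on the other strand. The STARD4 window lies at chr5:111512536-111512785 (minus strand), that of IDI1 at chr10:1049120-1049369 (minus strand), that of HMGCS1 at chr5:43313413-43313662 (minus strand) and that of INSIG1 at chr7:155297628-155297877 (plus strand).
STARD4: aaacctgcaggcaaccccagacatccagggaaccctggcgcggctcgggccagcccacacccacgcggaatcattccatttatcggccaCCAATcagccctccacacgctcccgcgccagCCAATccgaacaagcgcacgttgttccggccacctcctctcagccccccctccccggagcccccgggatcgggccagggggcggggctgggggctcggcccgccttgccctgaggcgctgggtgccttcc
IDI1: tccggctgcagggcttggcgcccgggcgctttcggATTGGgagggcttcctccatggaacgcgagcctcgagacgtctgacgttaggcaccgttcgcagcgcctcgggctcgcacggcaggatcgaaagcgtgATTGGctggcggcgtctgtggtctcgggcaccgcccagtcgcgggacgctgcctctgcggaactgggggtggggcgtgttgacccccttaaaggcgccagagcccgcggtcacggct
HMGCS1: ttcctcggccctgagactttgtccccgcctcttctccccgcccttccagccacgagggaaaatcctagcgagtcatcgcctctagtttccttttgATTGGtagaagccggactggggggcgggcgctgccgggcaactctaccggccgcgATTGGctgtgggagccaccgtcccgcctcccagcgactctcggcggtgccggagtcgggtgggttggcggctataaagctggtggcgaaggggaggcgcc
INSIG1: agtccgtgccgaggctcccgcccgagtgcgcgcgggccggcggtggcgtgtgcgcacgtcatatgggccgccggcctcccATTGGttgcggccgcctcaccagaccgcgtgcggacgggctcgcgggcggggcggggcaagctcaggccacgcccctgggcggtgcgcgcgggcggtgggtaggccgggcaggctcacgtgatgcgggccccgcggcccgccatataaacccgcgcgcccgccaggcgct

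IDI1 has 3 listed starts, and the window shown lies inside the span of a transcript from the farthest of them. STARD4, this IDI1 start and the HMGCS1 start shown each held 2 CCAAT boxes, and INSIG1 held 1. In STARD4 the boxes began 161 and 130 bases before the start, in IDI1 215 and 117, in HMGCS1 155 and 100, and in INSIG1 170. Among the windows not shown, that of the farthest IDI1 start held 0 boxes and that of its remaining start 3. Those 3 include the stretch CCAATTGG, which reads as the box on both strands, so its matches share letters. The other listed HMGCS1 start also held 0. Over the 11 windows of 6 members (the 4 above, DHCR7 and SC5D), 8 held a CCAAT box on either strand, against 32.0% of 35116 windows of all genes, coding or not. No window of SQLE or FDFT1 was included. Windows of 1 gene can overlap, and both SC5D windows hold the same box, which is counted for each. The Sp1 box GGGCGG was found in 10 of the 11, against 42.6% of all. The core of the sterol regulatory element, spelled TCACNCCAC, matched in 0 of the 11 and in 0.883% of all windows. E2F sites spelled TTTCGCGC or TTCCCGCC matched in 0 of the 11, against 0.439% and 2.72% of all. With shares this low among all windows, 0 matches in 11 windows were likely whichever genes were listed. Only these exact spellings were searched, so the counts of 0 cannot show whether the listed genes lack sterol regulatory elements or E2F sites. Both strands were searched, and Sp1 and CCAAT boxes, which can share end letters, were counted separately. CCAAT boxes thus stood before some starts of genes that passed and of genes that did not.

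All values below are log2 intensities as the authors deposited them, whose lowest possible value is about 4, unless another scale is named. Differences are taken within a probe set only, since probe sets differ in brightness for the same amount of RNA. A level called high or near the lowest value is read against that value and is no measure of RNA amount. RB1, the target of the hairpin, had 5.21 ± 0.06 (SD, n = 3) in shRB, against 5.76 ± 0.08 (SD, n = 2) in shControl. This difference of -0.54 (SE 0.14) missed the threshold in limma's test across the table (adjusted p = 0.0967). No shRB array reached a shControl array, as held for 15.4% of all genes with shRB lower. RB1 passed with dim genes left out (adjusted p = 0.0489). It did not pass under other scalings or variance models, with adjusted p from 0.0858 (array medians subtracted) to 0.319 (replicate block). Without 1 array the RB1 difference ranged from -0.60 to -0.49. The prostate markers KLK3 (10.08 in shRB, 10.13 in shControl) and KLK2 (9.23 in shRB, 9.25 in shControl) were high in both groups, while the fibroblast markers DCN (4.27 in shRB, 4.47 in shControl) and LUM (4.39 in shRB, 4.31 in shControl) lay near the lowest value. Of 13 measured markers of basal, neuroendocrine, fibroblast, blood and endothelial cells, 0 passed (limma), with 2 at an unadjusted p under 0.05. Not all of them lay near the lowest value. CD68 had 7.06 in shRB and 6.84 in shControl, and VWF 5.61 in shRB and 6.26 in shControl (VWF difference -0.65, adjusted p = 0.164). Over all genes, shRB arrays correlated with each other at r = 0.983 to 0.986 and the shControl arrays at r = 0.966. The control pair was thus the less alike, and its r lay within the range of pairs across the groups (0.955 to 0.970).

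STARD4 and IDI1 rose in shRB, and no member fell. STARD4, a small soluble carrier that takes cholesterol from one membrane to another and is itself an SREBP target, had 6.02, 6.27 and 6.03 in shRB replicates 1 to 3, against 4.93 and 5.09 in shControl replicates 1 and 2. Every shRB array lay above both shControl arrays, and the gap between groups was several times the spread within either. STARD4 averaged 6.10 ± 0.14 (SD, n = 3) in shRB, against 5.01 ± 0.12 (SD, n = 2) in shControl. The log2 difference was 1.10 (SE 0.15, 95% interval 0.76 to 1.44, adjusted p = 0.00862), 2.14-fold on the deposited scale. After subtraction of 16, an apparent constant in the table, the ratio of mean intensities was 3.27. In RNA of a whole culture, more cells with a transcript and more transcript per cell cannot be told apart. STARD4-AS1, a gene whose annotated span overlaps the start of STARD4 and which was added after its values were seen, had 5.61, 5.66 and 5.87 in shRB and 5.40 and 5.60 in shControl, a difference of 0.21 (SE 0.16, adjusted p = 0.502) that did not pass.

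IDI1, the isomerase that interconverts the 2 forms of the isoprenoid unit from which squalene is built, had 5.93, 6.02 and 6.45 in shRB, against 5.23 and 5.22 in shControl. The groups did not overlap, the shControl arrays were nearly equal, and shRB replicate 3 stood above the other shRB arrays. IDI1 averaged 6.13 ± 0.28 (SD, n = 3) in shRB, against 5.22 ± 0.0065 (SD, n = 2) in shControl. The difference was 0.91 (SE 0.18, 95% interval 0.52 to 1.29, adjusted p = 0.0398), 1.87-fold as deposited and 2.57-fold in mean intensity with the constant taken off. IDI2, a nearby paralog of IDI1 on chromosome 10, had 5.17, 5.32 and 5.17 in shRB and 4.84 and 4.85 in shControl. That difference of 0.38 (SE 0.15, adjusted p = 0.209) did not pass, although its groups did not overlap either. Whether the probe sets of the paralogs share signal was not tested.

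The remaining enzymes did not pass. SQLE, the squalene epoxidase and a rate-limiting enzyme of the sterol part of the pathway, had 6.89, 6.90 and 7.02 in shRB, against 6.70 and 6.45 in shControl. Its groups did not overlap, but the lowest shRB and the highest shControl array were close. The difference was 0.36 (SE 0.15, 95% interval 0.03 to 0.69, adjusted p = 0.244). DHCR7, the reductase of the last step to cholesterol, had 6.57, 6.78 and 6.77 in shRB and 6.60 and 6.59 in shControl. Here shRB replicate 1 lay just under both shControl arrays, and the difference was 0.11 (SE 0.15, 95% interval -0.21 to 0.44, adjusted p = 0.735). HMGCS1, the synthase that makes HMG-CoA at the entry to the mevalonate route, had 7.58, 7.63 and 7.37 in shRB and 7.60 and 7.36 in shControl. The groups overlapped almost fully, with a difference of 0.05 (SE 0.16, 95% interval -0.30 to 0.40, adjusted p = 0.902). The interval for HMGCS1 excludes a rise as large as the 0.91 of IDI1, its partner in the mevalonate arm.

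INSIG1, which retains SCAP in the endoplasmic reticulum and is itself induced by SREBP, had 6.11, 5.74 and 5.83 in shRB, against 5.94 and 5.23 in shControl. Its shControl arrays lay 0.70 apart, a wider gap than between any pair of its shRB arrays (0.37 at most), and shControl replicate 1 lay within the shRB range. The difference of 0.31 (SE 0.21, 95% interval -0.15 to 0.77) did not pass (adjusted p = 0.471), and its size depends on the shControl array: it was 0.66 without replicate 1 and -0.04 without replicate 2.

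**Figure D1:**
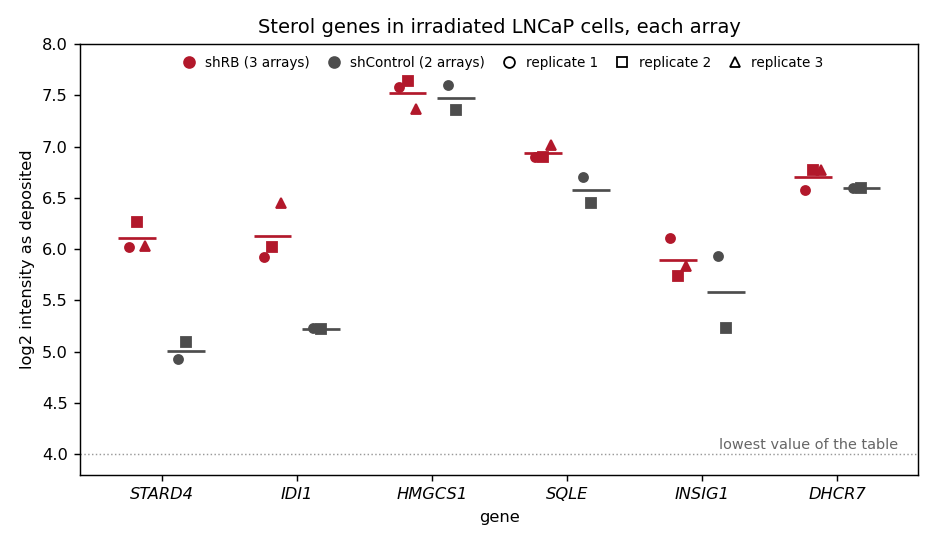
Log2 intensity as deposited (y axis) of the 6 measured members (x axis) on each array, with 3 shRB arrays in red at left and 2 shControl arrays in grey at right of each gene; marker shapes are replicate numbers, short lines are group means and the dotted line is the lowest value of the table. STARD4 and IDI1 are separated by 1.10 and 0.91 between means, HMGCS1 overlaps, and the shControl arrays of INSIG1 lie 0.70 apart.

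As a group, 2 of the 6 measured members were higher and 0 lower in limma's test (3 at an unadjusted p under 0.05), where 1.07% of all genes passed, 0.695% as higher and 0.378% as lower. Their median difference was 0.33, against 0.02 over all genes, and all 6 differences were positive, as were 53.8% of all. For 3 of them the arrays of the groups did not overlap, each time with shRB higher. Over all genes 36.0% did not overlap, 20.6% with shRB higher. The members were proposed with results of these arrays known, so these shares describe them and do not test them.

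In the wider synthesis pathway, 16 of 23 listed enzymes were measured and IDI1 was the only one to pass. Of the 16 differences 13 were positive, with a median of 0.22, where 53.8% of all genes were positive. Without shControl replicate 2, 11 were positive and 5 negative. In limma's test 4 had an unadjusted p under 0.05, where 18.1% of all genes did. In the mevalonate arm, 1 of 8 measured genes rose and 0 fell (6 positive, median 0.20). PMVK, which adds the second phosphate to mevalonate, had 6.55, 6.69 and 6.87 in shRB and 6.52 and 6.16 in shControl (difference 0.36, SE 0.17, adjusted p = 0.284). FDPS, which joins isoprenoid units into farnesyl diphosphate, ran the other way, with 7.49 ± 0.22 (SD, n = 3) in shRB, against 7.75 ± 0.15 (SD, n = 2) in shControl (difference -0.26, SE 0.17, adjusted p = 0.442). A second, dimmer FDPS probe set stood at 0.06 (adjusted p = 0.905), so the 2 probe sets differed in sign.

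Of 8 measured genes of the sterol arm, which runs from squalene to cholesterol, 0 passed (limma; 2 at an unadjusted p under 0.05), with 7 positive differences and a median of 0.23. EBP, the sterol isomerase, had 8.66, 8.66 and 8.80 in shRB and 8.52 and 8.20 in shControl, a difference of 0.35 (SE 0.16, adjusted p = 0.274). MSMO1, an oxidase that begins the removal of methyl groups at C-4, averaged 7.92 ± 0.05 (SD, n = 3) in shRB, against 7.69 ± 0.02 (SD, n = 2) in shControl (difference 0.22, SE 0.14, adjusted p = 0.443). NSDHL, the dehydrogenase of the same demethylation, was the 1 negative gene, with 7.57 ± 0.02 (SD, n = 3) in shRB, against 7.83 ± 0.15 (SD, n = 2) in shControl (difference -0.26, SE 0.15, adjusted p = 0.376). Enzymes that act one after the other in that reaction thus had differences of opposite sign, neither past the threshold. Leaving out IDI1, SQLE, HMGCS1 and DHCR7, the other 12 synthesis genes had 9 positive differences and a median of 0.22, and 0 passed (limma; 2 at an unadjusted p under 0.05).

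**Figure D2:**
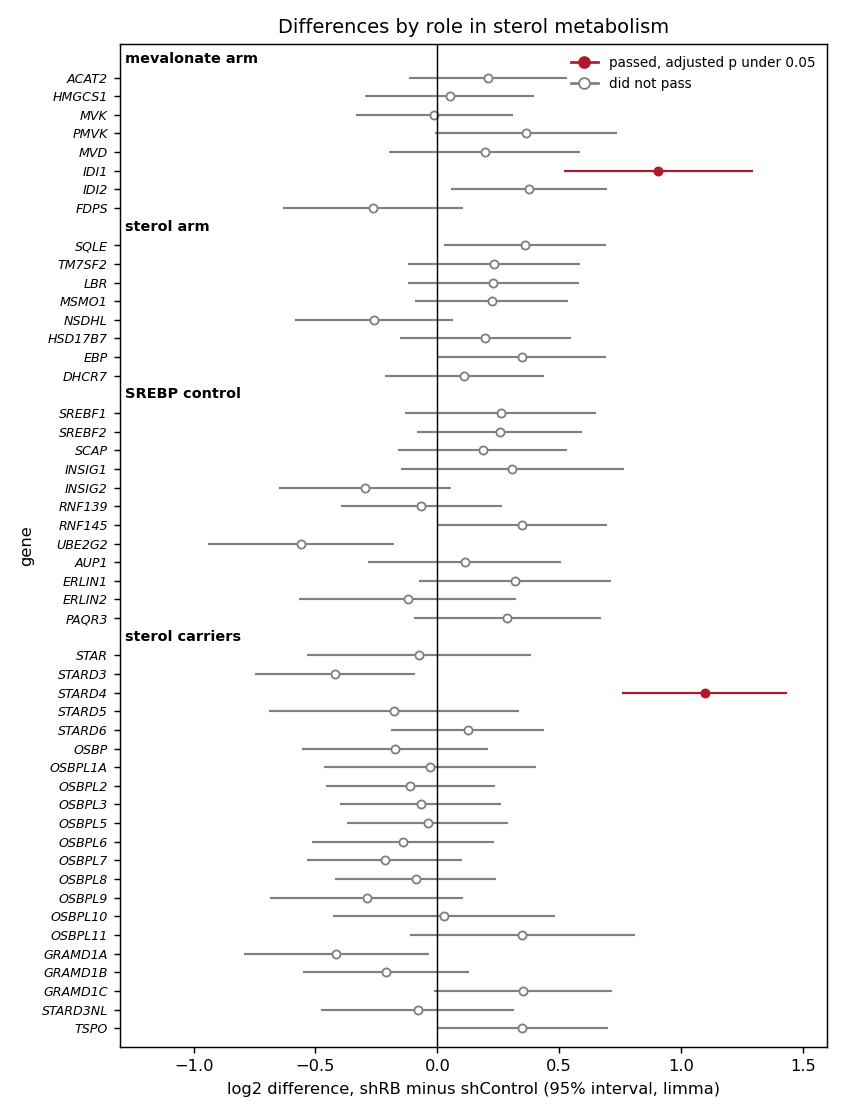
Log2 difference (x axis), shRB minus shControl, with limma's 95% interval for each measured gene (y axis) of 4 lists, from the entry to the mevalonate arm at the top to the sterol carriers at the bottom; filled red points passed at an adjusted p under 0.05 and open grey points did not. Only IDI1 and STARD4 are filled. Of the 16 synthesis genes 13 lie right of 0, and of the 21 carriers 15 lie left of it. Over all genes 53.8% of differences were positive.

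Among the genes that control SREBP, 12 of 17 were measured and 0 passed (limma; 2 at an unadjusted p under 0.05), 8 differences being above 0 and 4 below, and the median 0.22. UBE2G2, a ubiquitin-conjugating enzyme of endoplasmic reticulum degradation, had 7.13, 7.26 and 6.75 in shRB and 7.59 and 7.63 in shControl. No shRB array reached the shControl arrays, and the difference was -0.56 (SE 0.17, adjusted p = 0.132). RNF145, a ubiquitin ligase of the same membrane, stood at 0.35 (SE 0.16, adjusted p = 0.276) and ERLIN1, a scaffold protein of endoplasmic reticulum degradation, at 0.32 (SE 0.18, adjusted p = 0.373). The value for ERLIN1 was 0.59 without shControl replicate 1 and 0.043 without replicate 2. INSIG2, the relative of INSIG1 that is not driven by SREBP, had 7.46 ± 0.12 (SD, n = 3) in shRB, against 7.76 ± 0.23 (SD, n = 2) in shControl (difference -0.30, SE 0.16, adjusted p = 0.358). INSIG1 and INSIG2 therefore had differences of opposite sign, and neither passed. The contrast rests on shControl replicate 2, without which INSIG1 stood at -0.043 and INSIG2 at -0.46. Without replicate 1 they stood at 0.66 and -0.14. SREBF1, SREBF2 and SCAP, which encode the SREBP factors and their escort and were added after their values were seen, stood at 0.26 (adjusted p = 0.475), 0.25 (adjusted p = 0.411) and 0.19 (adjusted p = 0.569).

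The sterol carriers were measured for 21 of 22 listed genes, and 1, STARD4, rose while 0 fell. Of the 20 others, 15 had negative and 5 positive differences, with a median of -0.08, and 0 passed (limma; 2 at an unadjusted p under 0.05). STARD3, which tethers late endosomes to the endoplasmic reticulum and moves cholesterol between them, had 6.06, 6.12 and 5.99 in shRB and 6.37 and 6.58 in shControl. Its groups did not overlap, and the difference of -0.42 (SE 0.15, 95% interval -0.75 to -0.09, adjusted p = 0.176) had the opposite sign to that of its relative STARD4. GRAMD1A, which takes cholesterol from the plasma membrane to the endoplasmic reticulum, averaged 6.33 ± 0.12 (SD, n = 3) in shRB, against 6.74 ± 0.32 (SD, n = 2) in shControl (difference -0.41, SE 0.17, adjusted p = 0.235). It was -0.19 for GRAMD1A without shControl replicate 1 and -0.64 without replicate 2. TSPO, an outer mitochondrial membrane protein that binds cholesterol, stood at 0.35 (SE 0.16, adjusted p = 0.279). In the oxysterol-binding protein family, OSBP and its OSBPL relatives, 9 of 11 differences were negative, none past the threshold (limma; 0 at an unadjusted p under 0.05), and they lay between -0.29 and 0.35.

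Sterol uptake could be judged on only 3 of 12 listed genes. All 3 differences were negative and 0 passed (limma; 2 at an unadjusted p under 0.05). LRP1, a large lipoprotein receptor, had 6.68, 7.02 and 6.55 in shRB and 7.03 and 7.59 in shControl (difference -0.56, SE 0.20, adjusted p = 0.18). The LRP1 difference was -0.84 without shControl replicate 1 and -0.28 without replicate 2. VLDLR, a receptor for very-low-density lipoprotein, had 5.26 ± 0.16 (SD, n = 3) in shRB, against 5.68 ± 0.66 (SD, n = 2) in shControl, and its shControl arrays lay 0.94 apart (difference -0.42, adjusted p = 0.377). VLDLR stood at 0.050 without shControl replicate 1 and passed at -0.89 without replicate 2 (adjusted p = 0.0455). MYLIP, a ligase that marks lipoprotein receptors for degradation and is induced by sterol-activated LXR, stood at -0.41 (SE 0.18, adjusted p = 0.25). Efflux and LXR genes were measured for 3 of 11, with APOE, the apolipoprotein E, at 0.18 (adjusted p = 0.589), APOC1 at -0.06 (adjusted p = 0.874) and the phospholipid enzyme LPCAT3 at -0.02 (adjusted p = 0.965, or 0.04 after quantile normalization). APOE and APOC1 lay between 4.08 and 4.55 on every array, close to the lowest value.

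In the esterification and oxysterol list, 6 of 12 genes were measured and 0 passed (limma; 1 at an unadjusted p under 0.05). CH25H, which makes 25-hydroxycholesterol, a signal that holds SREBP inactive, had 4.66, 4.88 and 4.99 in shRB and 4.36 and 4.44 in shControl. The groups did not overlap, but both lay near the lowest value (difference 0.44, SE 0.16, adjusted p = 0.171). SOAT1, the main enzyme that esterifies cholesterol for storage, averaged 7.74 ± 0.04 (SD, n = 3) in shRB, against 7.99 ± 0.07 (SD, n = 2) in shControl (difference -0.24, SE 0.14, adjusted p = 0.396). Its relative SOAT2 stood at 0.22 (adjusted p = 0.556) and the carboxylesterase CES1 at 0.29 (adjusted p = 0.407), with a second CES1 probe set at 0.060 (adjusted p = 0.907). The isoprenoid branches, which use intermediates of the mevalonate arm for other products, had 4 of 13 genes measured and none past the threshold (limma; 0 at an unadjusted p under 0.05). The methyltransferase ICMT (0.19, adjusted p = 0.52), the protease ZMPSTE24 (-0.09, adjusted p = 0.773) and the dolichol enzyme subunits NUS1 (0.04, adjusted p = 0.929) and DHDDS (0.00, adjusted p = 0.995) all differed by less than 0.2, and the sign for DHDDS turned under other scalings.

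Fatty acid genes that SREBP also drives were measured for 10 of 13. Of these, 1 rose and 0 fell: FADS1, the delta-5 desaturase, averaged 8.22 ± 0.10 (SD, n = 3) in shRB, against 7.27 ± 0.07 (SD, n = 2) in shControl (difference 0.95, SE 0.15, adjusted p = 0.0139). Without any 1 of the shRB arrays FADS1 did not pass (adjusted p up to 0.135), nor with the constant removed (adjusted p = 0.123). FADS2, the delta-6 desaturase, whose annotated span overlaps that of FADS1, stood at 0.61 (SE 0.16, adjusted p = 0.0945) and passed with dim genes left out (adjusted p = 0.0458) and with an intensity trend and robust variances (adjusted p = 0.0107), while FADS1 passed under both. The elongase ELOVL6 stood at 0.23 (adjusted p = 0.469). FASN, the fatty acid synthase and a classic SREBP target, stood at -0.40 (SE 0.15, adjusted p = 0.184), with 7.34, 7.39 and 7.22 in shRB and 7.71 and 7.73 in shControl. FASN thus had the opposite sign to FADS1, and the list as a whole had 6 differences above 0 and 4 below, the median being 0.15.

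The shControl arrays themselves differed in these genes. Of the 18 members and synthesis genes, 15 were higher in shControl replicate 1 than in replicate 2, with a median gap of 0.18, whereas 47.6% of all genes were higher in replicate 1 and the median gap over all genes was -0.02. The gap was 0.55 for MVD, a decarboxylase of the mevalonate arm, 0.37 for PMVK and for the sterol reductase TM7SF2, 0.32 for EBP, 0.25 for SQLE and 0.24 for HMGCS1, but 0.01 for IDI1 and -0.16 for STARD4. As a consequence, the median difference of the 6 members was 0.57 without shControl replicate 1 and 0.17 without replicate 2. For STARD4 it was 1.01 and 1.18, and for IDI1 0.91 and 0.90, so the choice of control array moved these genes little. MVD and TM7SF2 were named after their values were seen.

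**Figure D3:**
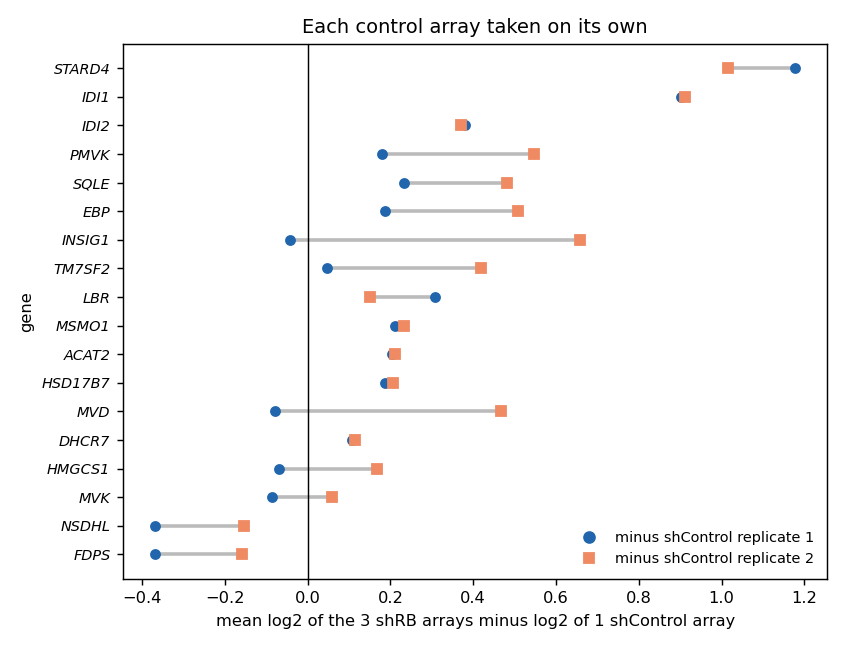
Mean log2 intensity of the 3 shRB arrays minus that of 1 shControl array (x axis), for the 18 measured members and synthesis genes (y axis, in order of the difference); blue circles use shControl replicate 1 and orange squares replicate 2. STARD4 and IDI1 lie far right with either array, while INSIG1 is at -0.04 with replicate 1 and 0.66 with replicate 2.

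The calls of STARD4 and IDI1 rest on all 3 shRB arrays. With any 1 of them left out, the adjusted p of STARD4 was 0.0679, 0.0815 and 0.0973 and that of IDI1 0.125, 0.159 and 0.197, while the differences stayed between 1.02 and 1.14 for STARD4 and between 0.75 and 1.01 for IDI1. With 16 subtracted and 4 added before the logarithm, STARD4 stood at 1.49 (adjusted p = 0.0886) and IDI1 at 1.19 (adjusted p = 0.14). The same values with an intensity trend and robust variances, a setting chosen after seeing the data, gave an adjusted p of 0.00131 for STARD4 and 0.0104 for IDI1. IDI1 also did not pass after quantile normalization (adjusted p = 0.0554), with array weights (0.0696) or without shControl replicate 1 (0.0519) or 2 (0.0695).

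**Figure D4:**
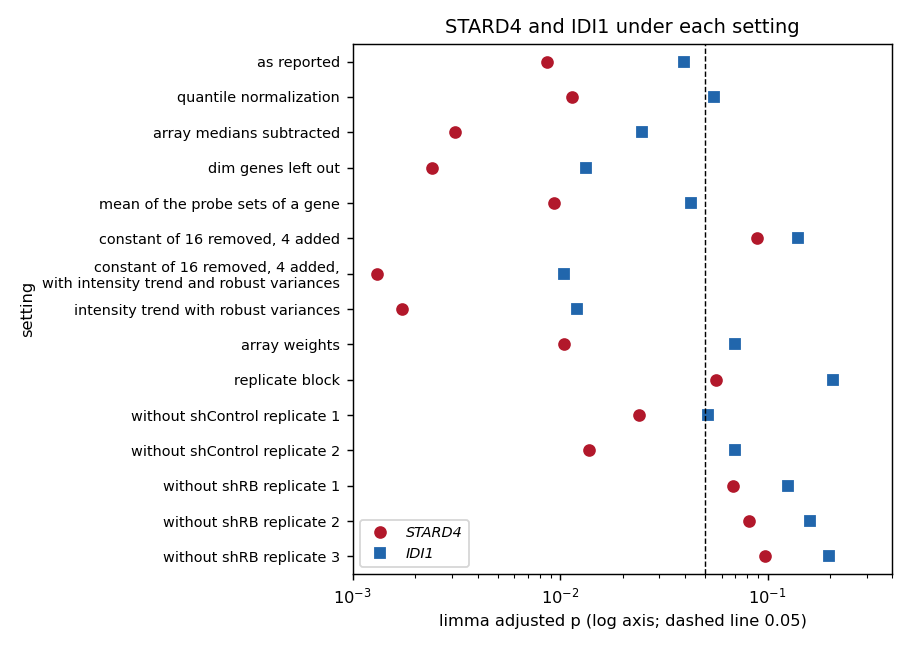
Limma's adjusted p (x axis, log scale) of STARD4 (red circles) and IDI1 (blue squares) as reported and under each other setting (y axis); the dashed line is 0.05. STARD4 is left of the line in 10 of 15 settings and IDI1 in 6.

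The genes whose 5 values, centred on each gene's mean, lay nearest to those of STARD4 were TBX15, a T-box transcription factor (root mean square difference 0.07), SOCS3, a feedback inhibitor of cytokine signalling (0.08), and the selenoprotein SELENOO (0.10). They differed by 1.03, 0.99 and 1.01 between the groups (adjusted p = 0.0205, 0.0101 and 0.0132). Like STARD4, none of them passed when an shRB array was left out (adjusted p = 0.0911 to 0.138) or with the constant removed (adjusted p = 0.0886 to 0.115). A second probe set of SOCS3 stood at -0.30 (adjusted p = 0.547), so its probe sets disagree. For IDI1 the nearest were SYCP3, a meiotic chromosome protein (0.04), the microRNA locus MIR3198-1 (0.05) and the antisense RNA PSMD6-AS2 (0.05), with differences of 0.88, 0.84 and 0.81 (adjusted p = 0.0484, 0.0622 and 0.0541), of which SYCP3 passed. SYCP3 passed in none of the 5 fits without 1 array (adjusted p = 0.0678 to 0.216) and not after quantile normalization (adjusted p = 0.071), while MIR3198-1 and PSMD6-AS2 passed with array medians subtracted (adjusted p = 0.0422 and 0.038). All of them share the high shRB replicate 3 of IDI1. The genes near STARD4 and near IDI1 were picked for such likeness. Their similar differences and lost calls largely follow from that choice and are no separate support. IDI1 itself ranked 108th in likeness to STARD4 in the table of 14812 genes, with a root mean square difference of 0.25. In likeness to IDI1, STARD4 ranked 363rd. STARD4 was highest in shRB replicate 2 and IDI1 in replicate 3.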

How the data were processed

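RNA of irradiated LNCaP cells was measured on single-colour whole-transcript arrays, 3 of shRB and 2 of shControl cells, grouped by the sample labels. The authors deposited linear intensities, 1 per probe set and array. How these were summarised and normalized, and on which build, is not given in the sources used here. The lowest value was 16.00, with 1.98% to 4.56% of an array's probe sets within 0.01 of 16, which compresses the fold changes of dim genes. The number of arrays limits the precision.

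Of 44607 probe sets, 15835 had 1 gene symbol, 0 had several, and 28772 had none here. RefSeq (GRCh38.p14) gave the current symbol of every named one by Entrez identifier. For the 651 genes with several probe sets, that with the highest mean log2 intensity was used, which left 14812 genes. The log2 intensities went into a two-sided limma fit without covariates (lmFit, eBayes; limma 3.58.1, R 4.3.3). Its p-values were adjusted over all genes by Benjamini and Hochberg's method, with 0.05 as threshold, and every adjusted p given is of this kind.

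The members, lists and alternatives were chosen with earlier results of these data known. The text names the members, RB1, genes of each list that passed and, below them, those with the smallest p up to 4 per list, and the 3 genes nearest to STARD4 and to IDI1 over the 5 arrays. The test was checked on simulated data. The alternatives were other scalings, filters, probe set rules, variance models, thresholds, array weights, a replicate block, removal of the constant of 16 and leaving out each array.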

Additional observations from a re-analysis of the deposited data

How the results depend on the processing

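As reported, 159 genes and 2 of the 6 members passed. The number of genes was 385 with dim genes left out, 13 with 16 subtracted and 4 added, 426 with an intensity trend and robust variances, 450 with both of these (chosen after seeing the data), 88 with array weights, 517 at a threshold of 0.1 and 32 at 0.01. It ranged from 22 to 411 without 1 array, with the lowest counts without an shRB array. The share of increases among calls was 64.8% as reported and 30.8% with the constant removed, 33.3% with the replicate block, 57.2% without shControl replicate 1, and 42.9%, 40.9% and 36.4% without shRB replicates 1 to 3. The number of members past the threshold was 1 after quantile normalization, with array weights and at a threshold of 0.01, and 0 with the constant removed (limma; 2 at an unadjusted p under 0.05). Without 1 array it ranged from 0 to 1. Replicate numbers are shared by the groups, but samples with the same number did not deviate together (r = -0.02 and 0.05). With the replicate block 24 genes and 0 members passed (2 at an unadjusted p under 0.05), with STARD4 at 1.14 (adjusted p = 0.0566) and IDI1 at 0.75 (adjusted p = 0.207); FADS1 (adjusted p = 0.144), TBX15 (0.0696), SOCS3 (0.0991), SELENOO (0.0855) and SYCP3 (0.226) did not pass either, and shRB replicate 3, which has no partner, adds nothing to that fit.

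Some differences changed sign. DHDDS stood at -0.040 after quantile normalization, -0.011 with array medians subtracted, -0.00049 with the constant removed, with or without the trend, and -0.020 with array weights, and LPCAT3 at 0.039 after quantile normalization. Without 1 array, HMGCS1 ranged from -0.069 to 0.17, INSIG1 from -0.043 to 0.66, VLDLR from -0.89 to 0.050, LPCAT3 from -0.078 to 0.043, NUS1 from -0.12 to 0.19 and DHDDS from -0.13 to 0.11. The second probe sets of FDPS (0.057) and SOCS3 (-0.30) reversed the sign. STARD4, IDI1, SQLE and DHCR7 kept a positive difference under every alternative run. The median difference over all genes moved from 0.02 to at most 0.05. The cause of these changes was not tested.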
